A study of Mus musculus with 8 samples.

Results

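The genes described here encode the proteins of the cytosolic ribosome. They were taken by name: every gene that the authors' table calls *Rpl* or *Rps* with a number (and the endings a, x, l, l1 or al), plus the stalk protein genes *Rplp0*, *Rplp1* and *Rplp2* and the small subunit gene *Rpsa*. Of 83 matching names, 2 were annotated as pseudogenes and left out, so that 81 genes remained of 43629 in the count table, 50 of the large and 31 of the small subunit. Names ending in l, l1 or al mark 5 of them as paralogs of another member. RNA was sequenced from growth plate chondrocytes that had been cut out by laser, from the tibia according to the labels and from both tibia and femur according to the study's methods. All 4 mice carried Axin2CreERT2 and R26RTdTomato and were given tamoxifen on each of 3 days from P23 to P25, after which cells expressing *Axin2*, together with their descendants, were red fluorescent. At P30, each mouse gave 1 library of TdTomato-positive resting chondrocytes and 1 library of unlabeled, flattened proliferative chondrocytes at a distance of 50 µm or more from the secondary ossification center, on frozen sections of 8 µm. Mice 1 and 2 were male and mice 6 and 13 were female, so each zone had n = 4. The 2 zones thus differed in the label as well as in position, and no mouse without tamoxifen was among the libraries analysed here.

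Each cytosolic ribosome joins a small subunit, which reads the mRNA, to a large subunit, which forms the peptide bonds. One copy of nearly every ribosomal protein is built into each ribosome, the stalk proteins being present in several copies, and their mRNAs are among the most abundant in most cells. Many of these mRNAs start with a C that is followed by an unbroken run of pyrimidines, the terminal oligopyrimidine tract, through which their translation responds to nutrients and growth signals. In the growth plate, resting chondrocytes divide rarely and proliferative chondrocytes divide and secrete much matrix.

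The tract is visible in the genome at the start of several of the genes on which the results below turn. Each window shows 15 bases before and 15 bases from the annotated RefSeq start on (build GRCm38.p6, strand of the gene), with the tract in capitals, defined as a C followed by at least 4 letters that are each C or T and beginning within 5 bases of that start. The first 5 genes are among those with the lowest p-values in either direction, *Rplp2* and *Rplp0* are stalk genes with and without a tract, and *Rpl27a* shows a tract that runs to the end of its window, over at least 19 bases.
Rpl31: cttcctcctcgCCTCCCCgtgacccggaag
Rps24: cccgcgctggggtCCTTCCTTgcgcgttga
Rps6: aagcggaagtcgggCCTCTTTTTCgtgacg
Rpsa: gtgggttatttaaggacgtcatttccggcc
Rps9: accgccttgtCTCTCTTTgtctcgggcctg
Rplp2: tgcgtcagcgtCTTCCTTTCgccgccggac
Rplp0: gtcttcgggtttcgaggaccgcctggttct
Rpl27a: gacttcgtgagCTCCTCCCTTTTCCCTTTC
These windows lie at chr1:39367836-39367865 (plus strand), chr14:24490663-24490692 (plus), chr4:86857353-86857382 (minus), chr9:120127751-120127780 (plus), chr7:3704026-3704055 (plus), chr7:141447636-141447665 (plus), chr5:115559452-115559481 (plus) and chr7:109519180-109519209 (plus), in the order shown. Only the gene strand was searched. *Rps24* has a further annotated start, with its window at chr14:24490738-24490767 (plus strand), that holds no tract and is not shown. A tract by this definition was present in at least 1 window of 29 of the 61 members that had one (47.5%), against 5718 of 27025 gene symbols in all (21.2%). These letters describe the annotated start and not a start measured in these cells.

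The counts carry a limit that touches every value below. The library kit keeps strand, and the strand setting of the counting is not given in the sources used here. Had the opposite setting been used, the counts printed for each member, *Rpl31* included, would be reads of the other strand. Genes that overlap on opposite strands bear on this: the cartilage collagen gene *Col9a3* had 1756 counts against 64349 on *Tcfl5*, and the hypertrophic collagen gene *Col10a1* had 406 against 13458 on *Nt5dc1*. Other marker genes had more counts than the gene opposite, such as *Prg4* (5715 against 108 on *Tpr*) and *Csf1r* (1084 against 58 on *Hmgxb3*). The pairs were picked after their counts were seen, and no tally over all pairs was made. Which setting was used was not tested.

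The libraries held between 192882 and 462044 counts in the resting zone and between 249284 and 631474 in the proliferative zone, and the members held 1.39% to 1.91% of them. The median member had between 25 and 93 counts per library. A count of 0 allows up to 3 counts, or 4.81 to 14.7 CPM (counts scaled to CPM with edgeR's TMM factors), by counting error alone. All 17 chondrocyte marker genes in the table had counts, summing to 8779 to 21132.5 CPM in the resting zone and 37018 to 63730 CPM in the proliferative zone, and the 8 resting zone markers summed to 236 to 501 against 13.7 to 23.3 CPM. Only 3 of these 8 had counts enough for the test, and *Axin2* had 1 count over all libraries. The marker list includes genes that the study names as higher in the resting zone of these same libraries. Their difference is therefore no independent check of the captured cells. Markers of other cells were present mainly in the resting zone libraries: 3209 to 4117 against 0 to 563 CPM over 10 neutrophil genes, 1899 to 12194 against 0 to 1726 CPM over 9 erythroid genes, 1661 to 4853 against 80.5 to 495 CPM over 10 osteoclast genes, and 8808 to 36988 against 806 to 4085 CPM over 11 genes of osteoblasts and osteocytes. The same held for macrophages (967 to 1103 against 200.3 to 489 CPM, with *Cd14* at 0 throughout), B lymphoid cells (137 to 328 against 3.20 to 34.9 CPM, with *Pax5* at 0 throughout) and endothelium (219 to 386 against 83.3 to 112 CPM). The ranges of hypertrophic chondrocyte genes (998 to 2431 against 950 to 1620 CPM) and cell cycle genes (1361 to 2691 against 1547 to 1873 CPM) overlapped, and 5 of 8 skeletal muscle genes (*Myh4*, *Myh1*, *Ckm*, *Tnnc2* and *Actn3*) were at 0 in every library. Single hypertrophic genes moved both ways: of 7 tested, 2 were called toward each zone by the rule given below. Over all tested genes, 11.0% were called toward the resting zone and 6.93% toward the proliferative zone. The cell cycle sum includes *Ccna2* with 4000 counts, which overlaps *Exosc9* (2111 counts) on the other strand. Every cell type makes ribosomal proteins, and the part that other cells had in the members' values was not tested. In bulk samples like these, fewer cells of a type and less RNA per cell cannot be told apart.

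Of the 81 members, 79 had a count in every library and 77 passed edgeR's filter on low counts, *Rpl17*, *Rpl22l1*, *Rpl24* and *Rpl39l* being too low. Their totals over the 8 libraries ran from 13 to 3802 counts with a median of 468, and the 5 members with the most counts held 26.1% of all member counts. Per kilobase of annotated exon, the highest mean level over the 8 libraries was that of *Rplp1*, which encodes an acidic stalk protein, at 2193 CPM per kb. Other members with a high level were *Rps15* at 601, *Rps25* at 420.4 and *Rps26* at 337 CPM per kb, against a median of 79.3 CPM per kb over the 81 members. The lengths are those of all annotated exons of a gene merged, so a gene with long rare exons ranks too low on this scale.

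The question put to the data was whether ribosomal protein genes differ between resting and proliferative chondrocytes. Few of them passed the test. Calls required that the adjusted p (quasi-likelihood test of edgeR, Benjamini-Hochberg over all genes tested) be below 0.01 and the log2 fold change beyond 1 in either direction. By this rule, 1 member, *Rpl31*, was called toward the resting zone and 0 toward the proliferative zone. Among all 3793 genes tested, 11.0% were called toward the resting zone and 6.93% toward the proliferative zone. At an unadjusted p below 0.05, 1 member was higher and 8 were lower in the resting zone, where 22.9% and 17.5% of all tested genes passed. At an adjusted p below 0.05 with no fold limit, 1 member was higher and 4 were lower, where 18.2% and 13.1% of all tested genes passed.

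**Figure D1:**
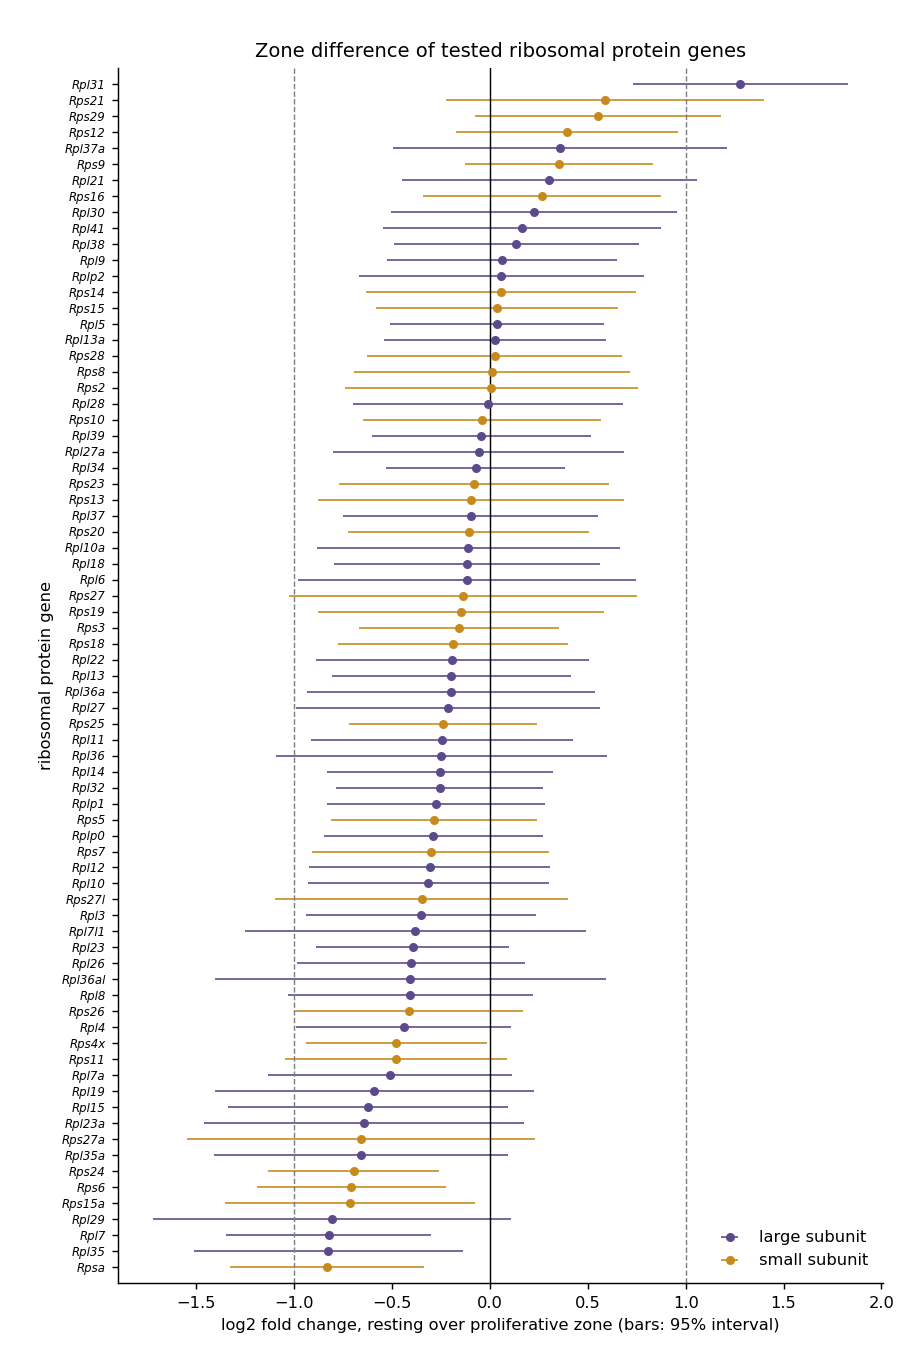
Each point is the log2 fold change (resting over proliferative zone, x axis) of 1 of 75 of the 77 tested ribosomal protein genes (y axis, in order of the change), colored by subunit, with its 95% interval; dashed lines mark changes of -1 and 1. Rpl31 at 1.28 stands alone on the right, and the lowest gene, Rpsa, lies at -0.83.

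The changes of the members were also close together. Log2 fold changes (resting over proliferative) ran from -0.83 to 1.28 with a median of -0.20, 57 of 77 below 0. The median of all tested genes was 0.08, with 1757 of 3793 below 0 and a range of -7.30 to 8.77. The SD over genes was 0.37 for the members and 1.49 for all tested genes. The members were also measured more tightly, with a median standard error of 0.29 against 0.43. For 51 of the 77 members (66.2%) the whole 95% interval lay between -1 and 1, which was so for 569 of the 3793 genes tested. For the other 26 members, a change beyond 1 in either direction was not excluded by the interval at this depth.

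**Figure D2:**
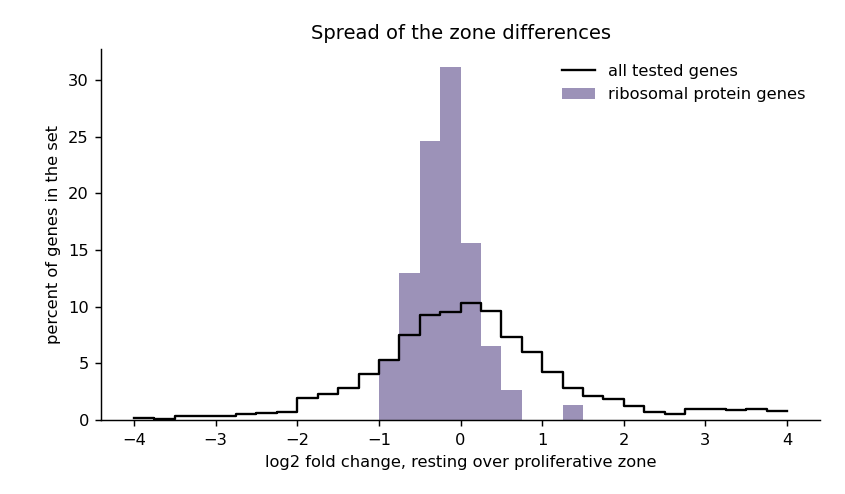
Bars give the percent of the 77 tested ribosomal protein genes, and the line the percent of all 3793 tested genes, in each bin of log2 fold change (resting over proliferative zone, x axis). The bars are gathered between -1 and 0.75 with 1 gene beyond, and 3.01% of all tested genes lie outside the plotted range.

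The direction depended on the mouse. On the log2(CPM + 1) scale, the median difference between the zones over the 77 members was 0.18 in mouse 1, where 31 members were lower in the resting zone. It was -0.30 in mouse 2, -0.22 in mouse 6 and -0.55 in mouse 13, where 53, 54 and 64 members were lower. Over the 4 mice, 19 members were lower in the resting zone in every mouse and 4 in none. The same counts by mouse were not made over all tested genes. The medians of all tested genes in the same mice were 0.09, 0.00336, 0.05 and 0.04. When the proliferative library of mouse 1 was left out, the members had a median log2 fold change of -0.36. The scaling moved the median as well: with upper quartile factors it was -0.41 while that of all tested genes was -0.14, and with library totals only the values were -0.07 and 0.20. The members' median lay 0.27 to 0.28 below that of all tested genes under each of these scalings.

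*Rpl31* (ENSMUSG00000073702, chromosome 1, 39367842 to 39371911 in GRCm38) encodes a large subunit protein at the exit of the peptide tunnel. It had 150, 229, 213 and 78 counts in the resting zone of mice 1, 2, 6 and 13, or 456, 726, 424 and 383 CPM. In the proliferative zone, it had 108, 129, 130 and 43 counts, or 210, 221, 208 and 178 CPM. The zones were fully separate, and the proliferative values lay close together while mouse 2 was highest in the resting zone. This gave a log2 fold change of 1.28 with a 95% interval of 0.73 to 1.83, a standard error of 0.25 and an adjusted p of 0.00239. The call was lost when the proliferative library of mouse 2, 6 or 13 was left out (adjusted p = 0.0114, 0.0137 and 0.0196), and also when no gene with a count was filtered (0.0129). Exons of *Rpl31* overlap those of *Tbc1d8* on the opposite strand over 420 bases, and that gene carried more counts and changed the other way, as given below.

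The next members by p toward the resting zone were *Rps29*, *Rps9*, *Rps21* and *Rps12*, all of the small subunit, and none passed the test. *Rps9* had 255, 228, 219 and 211 CPM in the resting zone of mice 1, 2, 6 and 13 and 169, 163, 191 and 195 CPM in the proliferative zone. The zones did not overlap, but the difference of *Rps9* was small at 0.35 on the log2 scale (SE 0.22, adjusted p = 0.265). *Rps12* was higher in the resting zone in 4 of 4 mice, at 274 ± 45.5 CPM against 208 ± 52.5 CPM (SD, n = 4 each), with a log2 fold change of 0.39 and an adjusted p of 0.290. *Rps29* had 133 ± 32.3 against 92.6 ± 15.4 CPM (log2 fold change 0.55, adjusted p = 0.179), and *Rps21* had 119 ± 57.1 against 80.7 ± 22.9 CPM (log2 fold change 0.59, adjusted p = 0.270). In *Rps21*, the resting zone of mouse 6 with 203 CPM lay far above the other 3 libraries of 79.0 to 105 CPM. When that library was left out, the log2 fold changes of *Rps21* and *Rps29* were 0.16 and 0.35, and when the proliferative library of mouse 1 was left out, that of *Rps12* was 0.16.

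Toward the proliferative zone, *Rpsa*, *Rps24*, *Rpl7* and *Rps6* had the lowest p-values, and none reached the call. *Rpsa* (ENSMUSG00000032518, chromosome 9, 120127689 to 120132369), a small subunit protein also known as the laminin receptor, had 708, 612, 394 and 515 CPM in the resting zone of mice 1, 2, 6 and 13. In the proliferative zone, the values of *Rpsa* were 992, 868, 1032 and 1074 CPM. The lowest proliferative value was above the highest resting value, for a log2 fold change of -0.83 with a 95% interval of -1.33 to -0.34 (adjusted p = 0.0152). *Rps24* (ENSMUSG00000025290, chromosome 14, 24487125 to 24496959), one of the genes mutated in Diamond-Blackfan anemia, had 422, 507, 477.5 and 486 CPM in the resting zone and 645, 822, 787 and 813 CPM in the proliferative zone. Its resting values lay close together below all proliferative values, with a change of -0.70 on the log2 scale (SE 0.20, adjusted p = 0.0195). *Rps6* (ENSMUSG00000028495, chromosome 4, 86854660 to 86857412), the substrate of the S6 kinases, had 176, 203, 179 and 250.3 CPM in the resting zone and 324, 306.5, 333 and 353 CPM in the proliferative zone. Here too the zones did not overlap, with a change of -0.71 on the log2 scale (SE 0.22, adjusted p = 0.0291).

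**Figure D3:**
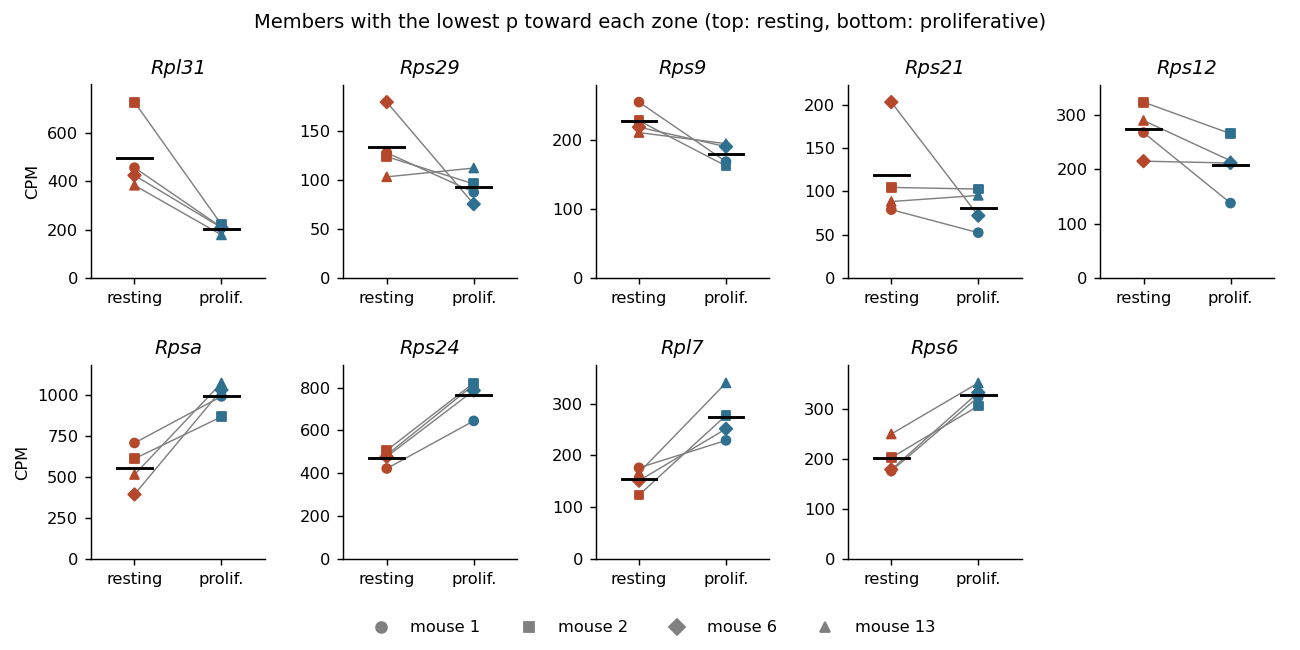
CPM (y axis, from 0) of 5 members with the lowest p toward the resting zone (top row) and 4 toward the proliferative zone (bottom row) in each library; symbols mark mice, grey lines join the 2 zones of a mouse and black bars are means over 4 mice. The zones are separate for Rpl31 and Rps9 in the top row and for all 4 genes of the bottom row.

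*Rpl7* (ENSMUSG00000043716, chromosome 1, 16101295 to 16104662), of the large subunit, had 176, 124, 151 and 167 CPM in the resting zone and 229, 277, 251.5 and 340.1 CPM in the proliferative zone. All its proliferative values were above all its resting values (change of -0.82 on the log2 scale, SE 0.24, adjusted p = 0.0208). *Rpsa*, *Rps24*, *Rps6* and *Rpl7* were thus below 0.05 but not below the 0.01 of the call. A replicate block by mouse brought *Rps6* to an adjusted p of 0.0546. It was also above 0.05 for *Rps6* without the resting zone library of mouse 1 (0.0799) or 2 (0.0519), for *Rps24* without that of mouse 1 (0.0555) and for *Rpl7* without that of mouse 2 (0.0522). Scaling by library totals only gave 0.0700 for *Rps6* and 0.0532 for *Rps24*. Upper quartile factors brought the log2 fold changes of *Rpsa* and *Rpl7* to -1.05 and -1.04 and made both of them calls, and brought *Rps24* and *Rps6* to adjusted p-values of 0.00455 and 0.00701 with changes short of the fold limit. DESeq2 gave 0.00627 for *Rpsa*, 0.00481 for *Rps24* and 0.00999 for *Rpl7*, also short of the fold limit. Among the tested members, the zones did not overlap for 9 that were lower in the resting zone, against 15.1% of all tested genes, and for 2 that were higher, against 17.8%. The 28 tested members with a tract in a window had a median log2 fold change of -0.13, and the 30 without one had a median of -0.20.

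The stalk of the large subunit, which *Rplp0* anchors and which draws elongation factors to the ribosome, did not pass the test in any of its 3 genes. *Rplp0* had 179, 196.5, 135 and 250.3 CPM in the resting zone of mice 1, 2, 6 and 13 and 208, 257, 195 and 265 CPM in the proliferative zone, lower in the resting zone in 4 of 4 mice but with overlapping ranges. Its log2 fold change was -0.29 (95% interval -0.85 to 0.27, adjusted p = 0.436). *Rplp1* had 990 ± 219 against 1199 ± 326 CPM (log2 fold change -0.28, 95% interval -0.83 to 0.28), and *Rplp2* had 82.6 ± 26.0 against 80.8 ± 17.4 CPM (log2 fold change 0.06, 95% interval -0.67 to 0.78). The other genes with a high level per kilobase also did not pass the test. *Rps25* had 1037 ± 256 against 1226 ± 103 CPM and *Rps26* had 446 ± 56.3 against 595 ± 196 CPM (SD, n = 4 each), with log2 fold changes of -0.24 and -0.41. With each library left out, these ran from -0.44 to -0.16 and from -0.69 to -0.30, and those of *Rplp0* and *Rplp1* from -0.47 to -0.17 and from -0.50 to -0.17. For *Rps15* the means were 382 ± 121 and 375 ± 79.6 CPM.

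The paralogs were low. *Rps27l*, a relative of *Rps27* known as a p53 target, had 36.5, 41.2, 45.8 and 39.3 CPM in the resting zone of mice 1, 2, 6 and 13 and 50.5, 61.6, 52.9 and 41.5 CPM in the proliferative zone. It was lower in the resting zone in 4 of 4 mice by little, with a log2 fold change of -0.35 (95% interval -1.10 to 0.40, adjusted p = 0.490). *Rpl36al* had 70.7 ± 43.2 against 91.0 ± 20.003 CPM (log2 fold change -0.41, 95% interval -1.40 to 0.59; -0.08 without the resting library of mouse 6 and -0.81 without that of mouse 13), and *Rpl7l1* had 25.6 ± 6.31 against 33.6 ± 7.56 CPM (log2 fold change -0.38, 95% interval -1.25 to 0.49). With each library left out, the value ran from -0.64 to -0.32 for *Rpl7l1* and from -0.55 to -0.31 for *Rps27l*. *Rpl22l1* and *Rpl39l* were below the filter. *Rpl22l1* had 5, 5, 16 and 4 counts in the resting zone and 8, 21, 12 and 7 in the proliferative zone. *Rpl39l*, best known from the testis, had 0 counts in 3 libraries and at most 7 in any other.

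Summed over all 81 members, the level was 15887, 16910 (mouse 2), 14048 and 14403 CPM in the resting zone of mice 1, 2, 6 and 13. In the proliferative zone it was 14763, 19754, 17354 and 19721 CPM. The ranges overlapped because the proliferative zone of mouse 1 was as low as the resting zone libraries, and the resting zone was the lower one in 3 of 4 mice. The mean within-mouse difference was -0.22 ± 0.24 on the log2 scale (SD, n = 4 mice), smaller than the SD between mice, and with library totals only it was -0.095 ± 0.21. This SD describes single mice and is not the error of the mean. Small subunit genes summed to 7449, 8365, 6621 and 6507 CPM in the resting zone and 7721, 9504, 8525 and 9784 CPM in the proliferative zone. The resting zone was lower in 4 of 4 mice, by a mean of -0.30 ± 0.23 on the log2 scale (SD, n = 4 mice), but in 3 of 4 with library totals only (mean -0.17 ± 0.22). For the large subunit, the sums were 8439, 8546, 7427 and 7896 CPM against 7042, 10250.2, 8829 and 9937 CPM, with a mean difference of -0.15 ± 0.27 (-0.022 ± 0.24 with library totals only) and mouse 1 in the other direction.

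**Figure D4:**
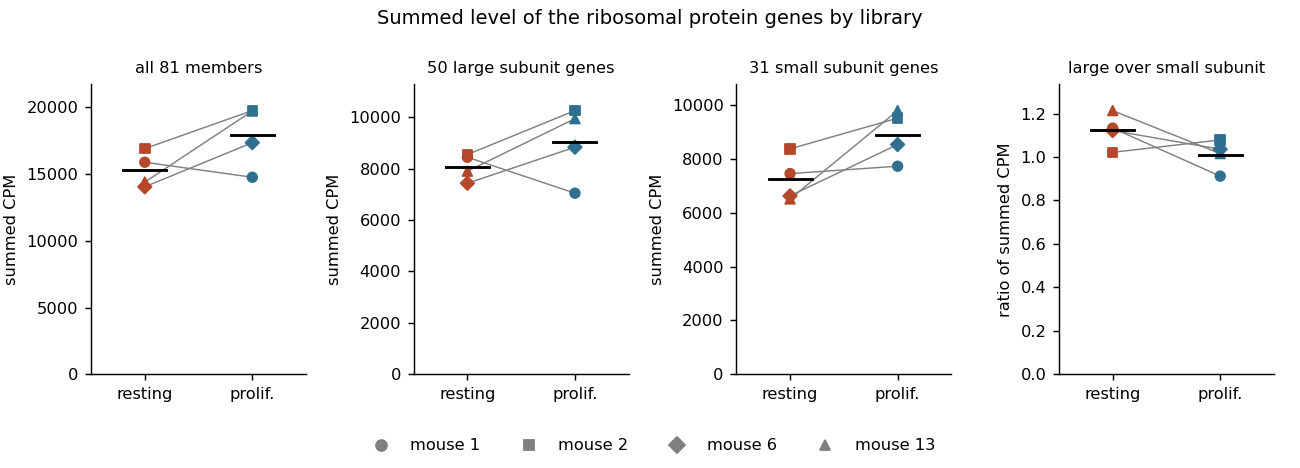
Summed CPM (y axis, from 0) of all members, of the large and of the small subunit genes in each library, and the ratio of the last pair; symbols mark mice, grey lines join the 2 zones of a mouse and black bars are means over 4 mice. Mouse 1 runs against the other 3 mice in the sum over all members, and mouse 2 in the ratio.

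The ratio of the large to the small subunit sum was 1.13, 1.02, 1.12 and 1.21 in the resting zone and 0.912, 1.08, 1.04 and 1.02 in the proliferative zone. It was higher in the resting zone in mice 1, 6 and 13 and lower in mouse 2, and the mean difference of 0.15 ± 0.17 (log2, SD, n = 4 mice) was smaller than the SD between mice. With the mean of log2(CPM + 1) over genes in place of the sum, the difference was -0.02. Without *Rpl31* and *Rpsa* it was 0.037, where the choice of these genes, made after their values were seen, fixes the direction of the move. The median log2 fold change pointed the other way, at -0.23 for the 46 tested genes of the large subunit and -0.15 for the 31 of the small subunit. The difference between these medians, -0.08, became 0.055 when the resting library of mouse 2 was left out. By mouse, the median difference (log2(CPM + 1)) was lower for the large subunit in mice 1, 2 and 6 and higher in mouse 13, at -0.43 against -0.70 for the small subunit.

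Males and females were compared through the interaction of zone and sex, with 2 mice of each sex, in the same 8 libraries. No member passed in edgeR's quasi-likelihood fit (lowest Benjamini-Hochberg adjusted p = 0.746), and 0 members had an unadjusted p below 0.05. Over all genes 0 were called (0.00%), with 250 at an unadjusted p below 0.05, and the likelihood ratio test of edgeR called 12. The median difference of the members' log2 fold changes, males minus females, was 0.25, against -0.09 over all tested genes. The males themselves differed, with medians of 0.18 in mouse 1 and -0.30 in mouse 2.

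Several members share genomic sequence with a gene on the other strand. Exons of 16 members overlap exons of 18 such genes in the table, and for 9 members the partner carried more counts than the member itself. *Tsix* had more counts than *Xist*, which lies opposite to it, in all 4 libraries of the female mice (1757 to 7495 against 126 to 665). In the 4 libraries of the male mice, *Tsix* had 0 to 15 counts and *Xist* 0 or 1. The deposited counts are per gene, so reads that fell within an overlap cannot be assigned to a strand from them. *Tbc1d8*, opposite to *Rpl31*, had 164, 206, 280 and 132 counts in the resting zone of mice 1, 2, 6 and 13 and 900, 770, 1014 and 374 in the proliferative zone. Scaled, this was 589 against 1560 CPM, with every resting value below every proliferative value, for a log2 fold change of -1.41 (SE 0.21, adjusted p = 0.000442) opposite in sign to that of *Rpl31*.

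**Figure D5:**
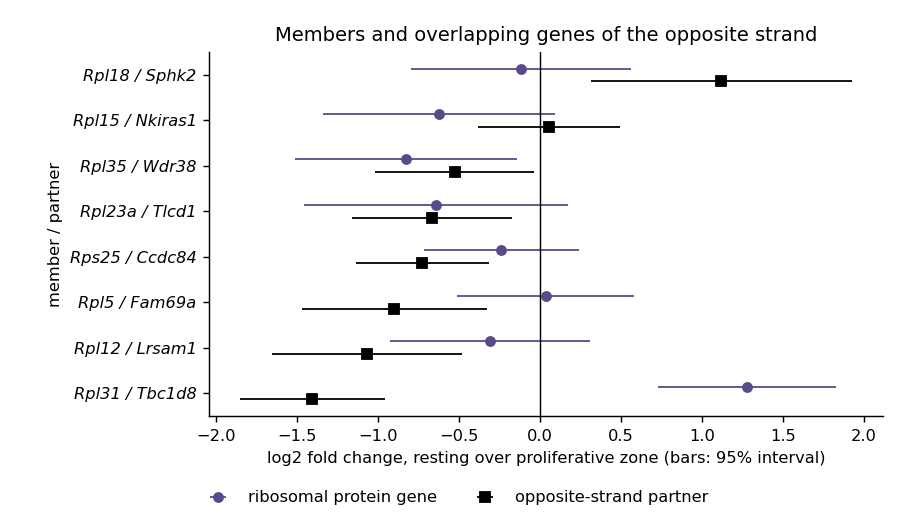
Log2 fold changes (resting over proliferative zone, x axis) with 95% intervals for the 8 tested members (circles) whose opposite-strand partner (squares) carried more counts. Rpl31 at 1.28 and Tbc1d8 at -1.41 are the pair farthest apart, on opposite sides of 0.

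Of the 9 partners, 7 had a negative log2 fold change, and the zones did not overlap for 6 that were lower in the resting zone (15.1% of all tested genes). *Lrsam1*, opposite to *Rpl12*, was called lower in the resting zone (log2 fold change -1.07, adjusted p = 0.00983), a call that a replicate block by mouse ended at 0.0107 and that was also lost in 7 of the 8 fits with 1 library left out (up to 0.0288), while *Rpl12* itself had a log2 fold change of -0.31 (adjusted p = 0.451). *Ccdc84*, opposite to *Rps25*, had 35735 counts in all against 3802 on *Rps25*, with log2 fold changes of -0.73 and -0.24. The antisense gene listed as *RP24-388D8.6* had 22982 counts against 78 on *Rpl22l1*, which it overlaps over 159 bases. Toward the resting zone, *Sphk2* had 1.12 (adjusted p = 0.0366) against -0.12 for *Rpl18*, and *Nkiras1* had 0.06 against -0.62 for *Rpl15*. Among the 62 tested members with no such partner, 0 were called and the median log2 fold change was -0.20. A further uncertainty comes from near-identical copies: 106 of 258 genes named as pseudogenes of members had counts, which summed to 11.5% to 15.1% of the members' counts per library.

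Genes that work with the ribosome were described from lists fixed with earlier results of these data known. Over all tested genes, 11.0% were called toward the resting zone and 6.93% toward the proliferative zone. Against these shares, 0 calls among a few tested genes say little. Ribosomal protein genes outside the name pattern had 3 of 4 genes tested and 0 called, with a median log2 fold change of -0.23. These were *Rps3a1* (158 ± 35.6 against 214 ± 5.33 CPM), *Gnb2l1*, which encodes the scaffold RACK1 (610 ± 69.8 against 713 ± 78.02 CPM), and *Fau*, a fusion of a ubiquitin-like and a ribosomal protein (188 ± 47.5 against 155 ± 31.4 CPM). Of 13 elongation factor genes, 9 were tested and 0 called, with a median of -0.32. *Eef1g*, a subunit of the elongation factor that carries tRNA, had 118.5, 120.4, 85.5 and 123 CPM in the resting zone and 214, 224, 224 and 207 CPM in the proliferative zone. All its resting values were below all its proliferative values, and its log2 fold change was -0.97 (adjusted p = 0.00943), which is not a call. Its adjusted p was 0.0251 with a replicate block by mouse and 0.0118 to 0.0206 with each library left out. *Eef1b2*, the exchange factor of the same complex, had 356 ± 51.7 against 555 ± 86.0 CPM (log2 fold change -0.64, adjusted p = 0.0432). With a replicate block by mouse, *Eef1b2* had an adjusted p of 0.0698, and with each library left out 0.0327 to 0.113. *Eif5a* had 192 ± 51.5 against 256 ± 31.8 CPM (log2 fold change -0.43, adjusted p = 0.259).

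Of 43 initiation factor genes, 27 were tested and 1 was called toward the proliferative zone (6.93% of all tested genes were), with a median log2 fold change of -0.07. *Eif4b*, which helps the helicase that unwinds mRNA 5′ ends, fell in the resting zone, with 54.7, 47.5, 59.7 and 58.9 CPM against 126, 116, 106 and 153 CPM and no overlap (log2 fold change -1.17, SE 0.29, adjusted p = 0.00916). The call ended with a replicate block by mouse (0.0252), with library totals only (0.0179), and when any of the 4 proliferative libraries or the resting library of mouse 1, 2 or 13 was left out (0.0117 to 0.0232). Of 91 ribosome biogenesis genes, only 20 had counts enough for the test, with 2 called higher in the resting zone, a share near the 11.0% of all tested genes, and a median of -0.02. *Bysl*, needed for small subunit assembly, had 3427, 4650 (mouse 2), 2696 and 2827 CPM in the resting zone against 1002, 1214, 726 and 1186 CPM (log2 fold change 1.72, adjusted p = 0.000465). *Noc2l*, a nucleolar protein, had 513, 475.5, 155 and 289.5 CPM against 73.8, 20.5, 22.4 and 49.8 CPM (log2 fold change 3.13, adjusted p = 0.000583). Neither overlapped between the zones. Both share exon sequence with a gene on the other strand, *Bysl* with *Ccnd3* over 361 bases (6490 counts on *Bysl*, 98 on *Ccnd3*) and *Noc2l* with *Samd11* over 598 bases (532 on *Noc2l*, 2755 on *Samd11*).

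Host genes of small nucleolar RNAs, whose introns carry guides for rRNA modification, had 6 of 17 tested and 0 called, with a median log2 fold change of -0.75. Among all tested genes, 11.0% were called toward the resting zone and 6.93% toward the proliferative zone, so 0 of 6 says little. *Snhg1* had 34.1 ± 14.6 against 76.6 ± 26.6 CPM (log2 fold change -1.17, adjusted p = 0.0465), *Gas5* had 68.8 ± 21.5 against 121 ± 14.9 CPM (log2 fold change -0.79, adjusted p = 0.0753) and *Snhg6* had 19.0 ± 9.43 against 43.8 ± 19.1 CPM (log2 fold change -1.14, adjusted p = 0.108). *Snhg6* (104 counts) lies opposite to *Mcmdc2* (6645 counts). Of 20 genes that control ribosomal protein mRNAs or answer to ribosome stress, 9 were tested and 0 called (against the same shares of all tested genes), with a median of -0.20. The kinase *Eif2ak1*, which halts initiation when heme is short, had 423 ± 121 against 728 ± 81.8 CPM (log2 fold change -0.78, adjusted p = 0.0306) and overlaps *Aimp2* on the other strand. *Larp4* had 24.7 ± 12.5 against 60.4 ± 15.8 CPM (log2 fold change -1.24, adjusted p = 0.0583), and the cell cycle inhibitor *Cdkn1a* had 40.8 ± 7.84 against 23.3 ± 8.31 CPM (log2 fold change 0.85, adjusted p = 0.141).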

How the data were processed

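Laser-captured resting and proliferative chondrocytes of 4 mice gave 8 libraries, whose zone, mouse and sex came from the sample labels. RNA was amplified by 2 rounds of in vitro transcription before library preparation with a kit that keeps strand. After trimming (BBDuk) and alignment to GRCm38 (HISAT2 2.1.0), the authors counted reads per Ensembl gene with HTSeq 0.11.2 and deposited whole-number counts without normalization; the strand setting is not given in the sources used here. A second deposited table holds a signal per library, which is these counts times 1 constant per library. From it only gene names were used, and its columns of the authors' own comparison (fold changes, mean levels, test statistics, p-values and false discovery rates) were not used.

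The zones were compared with edgeR 4.0.16 in R 4.3.3 (quasi-likelihood test, zone only, TMM factors, filter by zone, count at least 10, total at least 15, Benjamini-Hochberg adjustment over 3793 genes). DESeq2 1.42.0 and edgeR's likelihood ratio test were alternatives. The 95% intervals come from the edgeR fit and include the spread between libraries, whereas the limit of 3 counts covers counting error only, since the reads were amplified and carried no molecular identifiers. Libraries with the same mouse number came from the same animal by the labels. After removal of zone means, the correlation across genes between them was 0.165, 0.0136, 0.137 and 0.0577 in mice 1, 2, 6 and 13, against a highest correlation with the other zone of another mouse of 0.132, 0.132, 0.0927 and 0.0927. Every pair of libraries differed by more than sampling noise (chi-square test of counts).

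Exon overlaps and lengths came from GENCODE M21 (GRCm38), a later release than the authors used, and start windows from RefSeq. Of the 81 members, 61 had a window that could be shown or counted. Plots used Python 3.11.15 and matplotlib 3.10.9.

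The members and lists were chosen with earlier results of these data known. Named with values are up to 5 members with the lowest p in each direction, the 5 with the highest level per kilobase, paralogs with a count, the stalk genes and *Rpsa*, except that a few genes are not reported here. From each pathway list, up to 3 called genes in each direction are named, or the 3 with the lowest p where none was called. Partner genes on the other strand were chosen after their counts were seen.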

Additional observations from a re-analysis of the deposited data

Results flagged for a closer look

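In 94 groups of 4 libraries (the named genes, their overlapping partners and the summed values in each zone), 4 held a library that stood apart from the other 3 by Dixon's test (gap to the nearest library over the range of the group, 95% critical value for 4 values), where chance gives about 5% of groups. *Rps15* had 201 CPM in the resting zone of mouse 13 and 430 to 456 CPM in the other 3 resting zone libraries. *Rps25* had 1378 CPM in the proliferative zone of mouse 2 and 1161 to 1190 CPM in the others. *Eef1g* had 85.5 CPM in the resting zone of mouse 6 against 118.5 to 123 CPM, and *Snhg1* had 116 CPM in the proliferative zone of mouse 13 against 59.9 to 68.0 CPM.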

How the results depend on the processing

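The count of 1 member called higher in the resting zone became 0 over all genes with at least 1 count and among members without an opposite-strand partner (an alternative added after the data were seen), and lay between 0 and 1 with each library left out. The count of 0 in the proliferative zone became 2 with upper quartile factors (*Rpsa* and *Rpl7*), 1 over all genes with at least 1 count (*Rpsa*) and 4 at an adjusted p below 0.05 with no fold limit, and stayed at 0 with every library left out in turn. With the mouse as a replicate block, 1 and 0 members were called, and the calls over all genes were 385 and 230 in place of 419 and 263 (resting, then proliferative). No call of a member changed with the block. Over all genes, the calls numbered 829 and 468 when every gene with a count was kept, 125 and 137 with at least 10 counts in every library, and 689 and 497 at an adjusted p below 0.05. Upper quartile factors gave 339 and 359, with more calls toward the proliferative than toward the resting zone. Leaving out each library gave 255 to 472 and 183 to 349, both lowest when the proliferative library of mouse 2 was left out. Of the genes on the 6 pathway lists, 3 were called, against 6 with upper quartile factors, 6 over all genes with at least 1 count, 11 at an adjusted p below 0.05 and 2 to 4 with each library left out.

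The median log2 fold change of the members, -0.20, lay between -0.41 (all genes with at least 1 count) and -0.07 (library totals only) and kept its sign. With each library left out it ran from -0.36 to -0.19. The difference in median between large and small subunit, -0.08, turned to 0.055 when the resting library of mouse 2 was left out. The log2 ratio of large to small subunit sums, 0.15, was -0.023 with the mean of log2(CPM + 1) and 0.037 without *Rpl31* and *Rpsa* (added after the data were seen, a move whose direction that choice fixes). With a library left out, 22 of the 77 tested members turned their direction at least once, none of them called and the largest log2 fold change among them 0.22 in size. Among named genes, *Rps15* (0.04) had -0.18 with upper quartile factors, -0.17 over all genes with at least 1 count and -0.15 to 0.21 with each library left out. *Rplp2* (0.06) had -0.15 with upper quartile factors, -0.16 over all genes with at least 1 count and -0.19 to 0.20 with each library left out. *Nkiras1*, opposite to *Rpl15* (0.06), had -0.16 and -0.18 with the same settings and -0.15 to 0.085 with each library left out. The cause was not tested for any of these. The shallowest library, with 192882 counts, held a median of 25 counts per member.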

Other observations

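Over the 77 tested members, the log2 fold change had a Spearman correlation of -0.02 with the mean level and of -0.0015 with the merged exon length, a description across genes of the same 8 libraries. Of the 81 members, 26 overlap another annotated gene on their own strand. Outside the name rule as applied to the authors' names, 3 further genes had a matching name in GENCODE, of which *Rpl3l* and *Rpl10l* had 0 counts and *Rpl6l*, annotated as a processed pseudogene, had 39. Relative to each member's own mean over the 8 libraries (log2(CPM + 1) scale), the proliferative zone of mouse 13 stood highest with a median of 0.31 and that of mouse 1 lowest with -0.24, while the 4 resting zone libraries lay between -0.21 and -0.04.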
